A study of Mus musculus with 2 samples.

Results

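The blood-spinal cord barrier genes were 10 genes taken by symbol, Cldn5, Ocln, Mfsd2a, Slc2a1, Abcb1a, Abcg2, Slco1c1, Slco1a4, Slc38a5 and Slc22a8, out of 32285 genes counted. All 10 were found, and their unique molecular identifiers (UMIs, tags that count captured RNA molecules) were compared between endothelial-like cells and the other cell classes of mouse spinal cord. Whole spinal cords of FVB mice at postnatal day 4 had been dissociated with trypsin and collagenase II and sequenced as single cells, in 1 library labelled SMA and 1 labelled Con. SMA mice were mSmn-/- with hSMN22tg/0, a model of severe spinal muscular atrophy. Con mice were mSmn+/- littermates that carried the same human SMN2 transgene (hSMN22tg/0), so both groups were transgenic and the controls had also lost 1 mouse Smn allele. Per the study's methods, 3 littermates had been pooled into each library, so the mice in a library could not be told apart. There was 1 library per group, so no test between SMA and Con was possible, and every interval below is an exact 95% interval for counting error alone, which leaves out the spread between mice.

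The vessels of the brain and spinal cord form a barrier because their endothelial cells are sealed by tight junctions, carry few transport vesicles and move nutrients and waste through dedicated carriers and pumps. These properties are induced by WNT signals from the surrounding neural tissue, and pericytes and astrocyte endfeet help to keep them. Of the members, Cldn5 and Ocln encode tight junction proteins, Mfsd2a a lipid carrier that also holds vesicle transport down, and Slc2a1 the glucose carrier GLUT1. Abcb1a and Abcg2 encode the efflux pumps P-glycoprotein and BCRP, Slco1c1, Slco1a4 and Slc22a8 carriers of organic anions, and Slc38a5 a carrier of glutamine and other neutral amino acids.

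Before filtering, 26921 barcodes had been listed for SMA and 25419 for Con, with 85872075 and 97894084 UMIs, and 8163 barcodes stood in both lists. The SMA barcodes that were also listed in Con were left out of SMA. Limits of 200 to 4000 genes and under 10% mitochondrial UMIs were then applied. A Con cluster of 1339 barcodes within these limits, with ribosomal protein RNA above a median of 30%, was also left out. After both steps 6787 SMA and 8917 Con cells remained (medians of 6109 and 6229 UMIs). Levels are given as CPM, the usual scaling of a gene's UMIs to the total UMIs of the cells summed. Smn1, the gene lost in SMA mice, was not lower in the library labelled SMA (48.1 CPM, 46.2 to 50.2, against 43.8, 42.2 to 45.5), and since the counts do not show which part of the transcript they come from, they gave no check of the labels. Directions between SMA and Con below therefore rest on the labels.

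Endothelial-like cells were a single cluster in which 12 of 12 endothelial markers were among the 60 leading genes, with the members and the wider barrier list kept out of clustering and naming. They numbered 326 of 6787 cells in SMA (4.80%, Clopper-Pearson interval 4.31% to 5.34%) and 441 of 8917 in Con (4.95%, 4.50% to 5.42%). Median depth was 6885 UMIs in SMA and 7868 in Con. Of the 330 Con endothelial-like cells with 5000 or more UMIs, 329 had a barcode that was also listed in SMA. When the shared SMA barcodes were kept, 509 further endothelial-like SMA cells appeared with a median of 1984 UMIs, and their members read 3642 CPM for Cldn5, 952 for Slc38a5 and 93.5 for Slco1a4, to be read against the values of both libraries below. Markers of other cell types differed between the libraries in these cells. The 8 erythroid markers summed to 12182 CPM in SMA and 35378 in Con, 9 oligodendrocyte markers to 522 and 1038, and 7 neutrophil markers, 2 of them at 0, to 100.2 and 13.3. Their part in the results was not tested.

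Promoters are shown for 4 of the members with 91.7% or more of their UMIs of named cells in endothelial-like cells, Cldn5, Abcb1a, Slco1c1 and Slco1a4. One is also shown for Mfsd2a, which had high levels in glial classes too. Slc38a5 also passed this share but is not shown, and its window had 0 matches to the 5 motifs below. RefSeq promoter sequences (GRCm38.p6) matched all 10 members, 8 of them with 1 start site. Each line gives the 250 bases before the RefSeq start, 5′ to 3′ on the gene's strand, at chr16:18776597-18776846 (plus strand) for Cldn5, chr5:8566841-8567090 (plus) for Abcb1a, chr6:141524104-141524353 (plus) for Slco1c1, chr6:141856221-141856470 (minus) for Slco1a4 and chr4:122961189-122961438 (minus) for Mfsd2a. The RefSeq start of Abcb1a lies well upstream of the GENCODE gene start given further on, so its window belongs to a RefSeq transcript with a more distal first exon. Capitals mark matches to 5 short motifs on either strand, CTTTGA (bound by TCF/LEF factors of the WNT pathway), ACAAAG and ACAATG (SOX factors), TGTTTA (forkhead factors) and CCGGAA (ETS factors), and no matches overlapped in these windows.
Cldn5: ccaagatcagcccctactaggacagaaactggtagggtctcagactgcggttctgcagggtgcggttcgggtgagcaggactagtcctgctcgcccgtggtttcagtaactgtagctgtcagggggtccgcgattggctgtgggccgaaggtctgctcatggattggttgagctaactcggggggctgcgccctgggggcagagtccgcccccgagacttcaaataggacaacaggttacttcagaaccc
Abcb1a: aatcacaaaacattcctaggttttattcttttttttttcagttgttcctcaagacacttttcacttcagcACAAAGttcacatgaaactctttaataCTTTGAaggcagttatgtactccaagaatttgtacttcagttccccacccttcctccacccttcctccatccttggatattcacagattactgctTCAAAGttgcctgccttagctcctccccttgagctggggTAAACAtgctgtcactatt
Slco1c1: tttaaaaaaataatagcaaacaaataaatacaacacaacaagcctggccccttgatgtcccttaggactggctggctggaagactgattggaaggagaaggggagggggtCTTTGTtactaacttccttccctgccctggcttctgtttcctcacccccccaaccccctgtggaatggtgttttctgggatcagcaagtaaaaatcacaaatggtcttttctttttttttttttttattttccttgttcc
Slco1a4: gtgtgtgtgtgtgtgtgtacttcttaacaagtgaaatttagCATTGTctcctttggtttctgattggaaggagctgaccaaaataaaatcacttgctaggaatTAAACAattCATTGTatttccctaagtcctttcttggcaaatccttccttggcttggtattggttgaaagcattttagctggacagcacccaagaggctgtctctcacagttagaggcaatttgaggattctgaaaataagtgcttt
Mfsd2a: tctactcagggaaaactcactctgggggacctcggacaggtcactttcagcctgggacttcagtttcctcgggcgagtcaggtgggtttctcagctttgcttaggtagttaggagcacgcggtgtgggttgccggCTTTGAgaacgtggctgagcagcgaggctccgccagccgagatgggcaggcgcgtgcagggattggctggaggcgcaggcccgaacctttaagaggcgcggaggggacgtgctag

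Among the 8 members with 1 start site, CTTTGA was found in 2, ACAAAG in 3, ACAATG in 1, TGTTTA in 2 and CCGGAA in 0. Of all 32851 promoter windows of this length, 13.8% held CTTTGA, 16.5% ACAAAG, 10.7% ACAATG, 12.03% TGTTTA and 12.03% CCGGAA. Abcb1a had the most matches of the printed windows (4, of which 2 were CTTTGA) and Cldn5 had 0. These are letter matches in a short window and say nothing of binding.

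In both libraries all 10 members were at least 4-fold higher in endothelial-like cells than in the sum of the other named cells. Of all genes with 20 or more UMIs, 4.92% of 15707 in SMA and 4.73% of 15941 in Con were as high. The median log2 ratio of the members was 7.66 in SMA (range 2.38 to 9.33) and 7.25 in Con (2.74 to 8.52), against medians of -0.46 and -0.36 over all genes tested. Since the UMIs are tags from transcript 3′ ends with no length correction, levels are compared between cells for a gene and genes are not ranked by level. The 10 members fell into 2 sets by where the rest of their UMIs lay. Cldn5, Abcb1a, Slco1c1, Slco1a4, Slc38a5 and Slc22a8 had 90.5% to 97.4% of their UMIs of named cells in endothelial-like cells, and Ocln, Mfsd2a, Slc2a1 and Abcg2 had 23.5% to 73.4%.

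**Figure D1:**
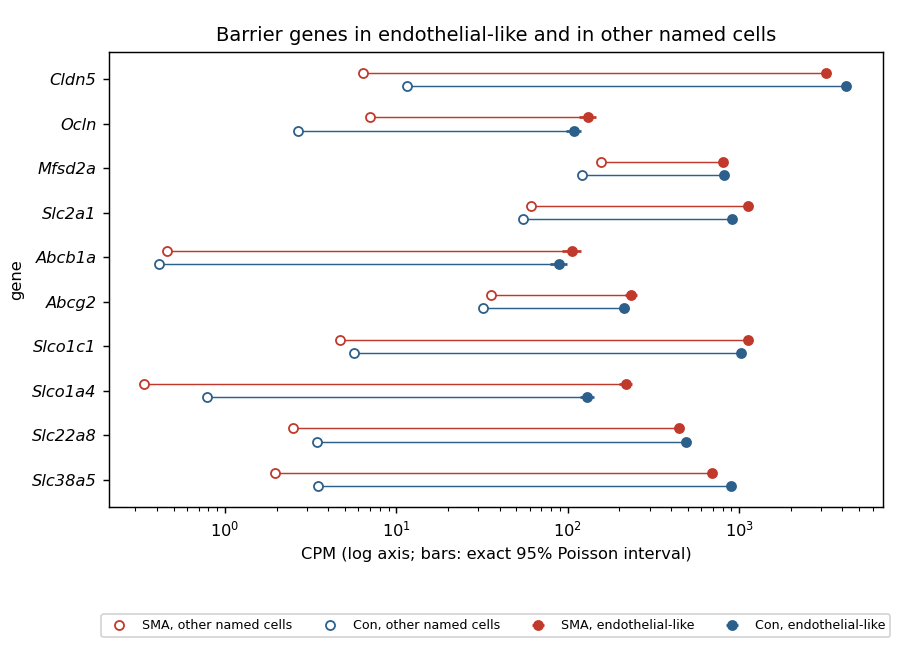
CPM of each member (log axis) in endothelial-like cells (filled) and in all other named cells (open) of the SMA (red) and Con (blue) libraries, with exact 95% Poisson intervals on the filled points. In SMA the distance is widest for Slco1a4 (9.33 on the log2 scale) and Cldn5 (8.98), and in both libraries it is narrowest for Mfsd2a and Abcg2.

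Both tight junction genes were endothelial, Cldn5 far more strictly than Ocln. Cldn5 (chromosome 16, 18776847 to 18778262), the main claudin of barrier endothelium, stood at 3213 CPM in SMA endothelial-like cells (3142 to 3284) and 4221 in Con (4155 to 4289). Of the 11 classes with 50 or more cells in both libraries, ependymal-like cells came next at 12.5 in SMA and 36.7 in Con, with intervals that overlapped those of the class after it. Few cells carried this, since 5 cells held 32 of the 51 UMIs in SMA and 60 of the 72 in Con, 39 of them in 1 cell. OPC-like cells, glial precursors that should lack Cldn5, had 5.59 and 9.14. Erythroid-like cells should lack it too, but globin made up 82.1% of their UMIs in SMA and 82.0% in Con, which dilutes every other gene there. Their levels are therefore given with globin UMIs left out of the total, a choice made after seeing the data. On that scale Cldn5 stood at 26.9 in SMA (16.2 to 42.0) and 66.6 in Con erythroid-like cells (54.9 to 79.97), or 4.83 and 11.96 with globin counted. Ependymal-like cells had 12.8 (9.50 to 16.8) and 37.3 (29.2 to 47.0) on the same scale, so without globin erythroid-like cells came second, beyond counting error in Con but not in SMA. Ocln (chromosome 13, 100496507 to 100552718) stood at 130.4 (117 to 146) in SMA and 109 (98.1 to 119.9) in Con endothelial-like cells. Ependymal-like cells, which line the central canal, held 64.0 CPM of Ocln in SMA (56.5 to 72.3) and 59.1 in Con (48.8 to 70.9). Endothelial-like over ependymal-like, Ocln was thus 1.03 higher on the log2 scale in SMA (0.79 to 1.27) and 0.88 in Con (0.58 to 1.19), the smallest gap to a second class of any member. In OPC-like cells it stood at 0.458 and 0.538, and in erythroid-like cells at 2.83 and 1.75 without globin.

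Mfsd2a and Slc2a1 were highest in endothelial-like cells but had clear levels in glia. Mfsd2a (chromosome 4, 122946850 to 122961188) stood at 809 CPM in SMA endothelial-like cells and 817 in Con. Oligodendrocyte precursors (OPC-like cells) held 366 in SMA (355 to 378) and 342 in Con (330 to 354), and committed precursors (COP-like cells) 318 and 276. These classes hold many cells, and 23.5% of its UMIs in SMA and 31.3% in Con lay in endothelial-like cells. Astrocyte-like cells held 127 in SMA (119 to 135) and 64.8 in Con (60.02 to 69.9). Erythroid-like cells had 75.1 and 92.9 without globin, the latter above the 65.4 of Con astrocyte-like cells on that scale, and microglia-like cells had 18.7 and 11.1 with all UMIs counted.

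Slc2a1 (chromosome 4, 119108711 to 119137983) stood at 1129 CPM in SMA endothelial-like cells (1087 to 1172) and 913 in Con (882 to 945). Ependymal-like cells came second with 194 (181 to 208) and 222 (201 to 243), and astrocyte-like cells followed with 113 (106 to 121) and 117 (111 to 124). The intervals of these classes did not overlap, so their order held beyond counting error in both libraries. Erythroid-like cells, whose red cell lineage is known to carry GLUT1, had 48.2 and 53.7 without globin.

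The efflux pumps differed in their spread. Abcb1a (chromosome 5, 8660077 to 8748575) stood at 105 CPM in SMA endothelial-like cells (92.6 to 119) and 88.6 in Con (79.1 to 98.9), with 19 and 22 UMIs in all other named cells together. Of those 19 in SMA, 6 were in fibroblast-like cells. Its neighbouring paralogue Abcb1b had 5 UMIs in SMA and 2 in Con endothelial-like cells. Abcg2 (chromosome 6, 58584523 to 58695676) stood at 234 in SMA (216 to 254) and 213 in Con (198 to 229) and was also found in OPC-like cells (55.7 and 51.8), microglia-like cells (51.1 and 57.6) and mural-like cells (51.9 and 75.1). Intervals of these 3 classes overlapped in SMA, so their order could not be set there. In Con the microglia-like interval (51.6 to 64.0) overlapped both others, and only mural-like cells (62.9 to 88.9) lay above OPC-like cells (47.3 to 56.7). Erythroid-like cells, whose lineage is known to carry BCRP, had 36.8 and 32.1 without globin.

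Slco1c1 and Slco1a4, which move thyroid hormone and other organic anions, lie near each other on chromosome 6 (141524368 to 141570177 and 141805440 to 141856199) on opposite strands. Slco1c1 stood at 1124 CPM in SMA endothelial-like cells (1082 to 1167) and 1023 in Con (990.2 to 1057). Astrocyte-like cells had 12.8 in SMA and 13.8 in Con, and OPC-like cells 1.74 and 2.80. Without globin, erythroid-like cells had 12.8 in SMA and 19.9 in Con, beside 12.8 and 14.0 in astrocyte-like cells on that scale. For each UMI of Cldn5, astrocyte-like cells had 3.21 UMIs of Slco1c1 in SMA and 1.59 in Con. Erythroid-like cells had 0.474 (from 9 UMIs) and 0.298, and endothelial-like cells 0.350 and 0.242. How much of the astrocyte-like level is background from other cells was not tested. SMA fibroblast-like cells had 18.7 CPM of Slco1c1 from 11 UMIs. Slco1a4 stood at 218 in SMA (199 to 237) and 129 in Con (118 to 141), with 14 UMIs in all other named SMA cells and 42 in those of Con. These are the members with the most similar pattern over classes (Pearson r = 0.96 of log2 levels over 22 points, each a class in a library, which share depth and libraries).

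Slc22a8 (chromosome 19, 8591254 to 8611835), which encodes OAT3, an organic anion carrier, stood at 445 CPM in SMA endothelial-like cells (419 to 472) and 489 in Con (466 to 512). Mural-like cells, the pericytes and smooth muscle of the vessel wall, held 82.3 in SMA (60.2 to 109.7) and 62.2 in Con (51.2 to 74.9). In those cells Cldn5 had only 2 UMIs in SMA and 59 in Con, so there were 23.0 and 1.88 UMIs of Slc22a8 for each UMI of Cldn5, against 0.138 and 0.116 in endothelial-like cells. The mural-like counts of Slc22a8 did not follow those of Cldn5. They were spread over 34 of 92 mural-like cells in SMA and 68 of 261 in Con. Slc38a5 (chromosome X, 8271133 to 8280179) stood at 691 in SMA (658 to 724) and 899 in Con (868 to 930.3), and 9 of the other 10 classes had 6.94 or less with globin left out. The exception was erythroid-like cells, at 24.1 in SMA (14.0 to 38.6) and 43.2 in Con (33.9 to 54.3) on that scale. In them there were 0.895 UMIs of Slc38a5 in SMA and 0.649 in Con for each UMI of Cldn5, against 0.215 and 0.213 in endothelial-like cells, and the 74 Con UMIs lay in 68 cells.

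**Figure D2:**
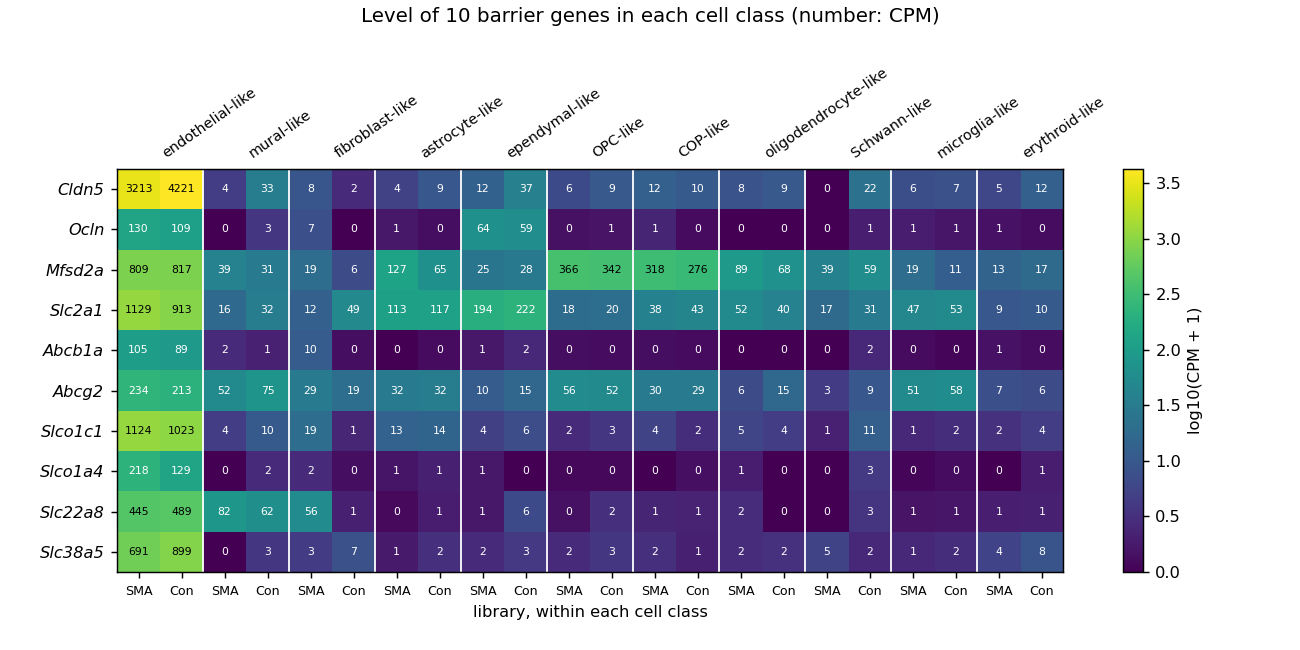
Level of each member (rows) in the 11 classes with 50 or more cells in both libraries (columns, SMA and Con side by side), as CPM printed in each cell and coloured on a log10 scale after adding 1. Globin UMIs are counted in the totals, so erythroid-like columns read low. The endothelial-like columns are highest in every row, with Mfsd2a also visible in OPC-like and COP-like cells, Slc2a1 in ependymal-like and astrocyte-like cells and Ocln in ependymal-like cells.

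Endothelial-like cells often showed several members at once. Each cell was thinned at random to 1000 UMIs so that total depth was equal. This left out 1 shallower Con endothelial-like cell, and of the classes compared below 1 OPC-like and 1 ependymal-like cell in each library. A UMI of Cldn5 was then found in 90.2% of SMA (86.4% to 93.2%) and 92.7% of Con endothelial-like cells (89.9% to 94.97%), or 98.8% and 98.0% without thinning. Abcb1a was found in 10.4% and 10.9%, or 48.2% and 48.5% without thinning. OPC-like cells, the background class for Cldn5, Abcb1a and Slco1a4 (medians of 5599 and 5709 UMIs), showed a UMI of Cldn5 in 13 of 1866 cells (0.697%) and 15 of 1547 at this depth. Abcb1a appeared in 0 of 1866, with an upper bound of 0.197%, and in 0.0646% of 1547. Erythroid-like cells had to be thinned to 1000 UMIs other than globin, which left 239 of 514 SMA and 551 of 1305 Con cells. They showed Cldn5 in 4.60% (2.32% to 8.09%) and 5.81% (4.01% to 8.10%), and Abcb1a in 0 of 239 (upper bound 1.53%) and 0.181%, against 91.4% and 94.1% for Cldn5 and 9.54% and 10.3% for Abcb1a in endothelial-like cells thinned in the same way. For Slco1a4 the share was 18.7% in SMA (14.6% to 23.4%) and 10.9% in Con (8.15% to 14.2%), intervals that did not overlap. Slco1a4 appeared in 0 of 1866 OPC-like SMA cells and 2 of 1547 in Con. The median endothelial-like cell showed 4 of the 10 members in both libraries, and 41.4% in SMA and 37.7% in Con showed 5 or more. Of the other classes, erythroid-like cells aside, only the Con ependymal-like cells had any cell with 5 or more (0.344%).

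Thinning also bore on the glial levels. Mfsd2a was found in 29.6% of SMA and 29.7% of Con OPC-like cells at 1000 UMIs, against 1.91% and 0.687% of ependymal-like cells and 52.1% and 51.6% of endothelial-like cells. With globin left out it was found in 30.4% and 28.9% of OPC-like cells and in 7.53% and 6.90% of erythroid-like cells. Slc2a1 was found in 16.4% and 18.9% of ependymal-like cells, against 21 of 1866 and 31 of 1547 OPC-like cells. Ocln was found in 7.32% and 7.56% of ependymal-like cells and in 12.9% and 9.55% of endothelial-like cells.

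The genes whose levels over the same 22 class and library values were most like each member were named by their Pearson r of log2 levels among 15361 genes with 50 or more UMIs. The r values describe these points, which share libraries and depth. For Cldn5 they were Pglyrp1 (0.97), Adgrl4 (0.96) and Srarp (0.96). Abcb1a was most like Sox18 (0.98), Abcc6 (0.97) and Ccm2l (0.96), and Slco1c1 most like Flvcr2 (0.95), Sox18 (0.95) and Scgb3a1 (0.94). Slco1a4 was most like Kcnq1 (0.98), She (0.97) and Flvcr2 (0.97). Slc38a5 was most like Ctsw (0.96), Gpihbp1 (0.96) and Flt4 (0.96), and Slc22a8 most like Arhgef5 (0.97). Members with wider spread had other partners, Rassf9 for Ocln (0.98), Plcb1 for Mfsd2a (0.90), Gm43581 for Slc2a1 (0.90) and St8sia4 for Abcg2 (0.89).

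Within the endothelium the members did not keep step. Endothelial-like cells were clustered again without the members, giving 8 sub-clusters, of which 3 had 3 or more markers of another class among their 30 leading genes and were kept out of the ranges below. The levels below sum both libraries unless a library is named. Each is described by its 5 leading genes and by how many genes of a list had their highest level there among the 8. Sub-cluster 1 (105 SMA and 103 Con cells) was led by Fgfbp1, Cdkn2b, Ccn2, Ddc and Abhd17c and had the highest levels of 3 of 6 capillary genes. Sub-cluster 2 (12 and 126) was led by Pclaf, Top2a, Birc5, Tk1 and Spc25 and had the highest levels of 8 of 8 cycling genes. It was also highest for 4 of 7 genes of capillaries of other organs, Fabp4 (193 CPM), Gpihbp1 (49.1), Aqp1 (5.46) and Cd300lg (0.779). Cd300lg was near 0 throughout, with 0.697 in sub-cluster 1. Of 8 venous genes sub-cluster 2 was highest for 2, Nr2f2 and Ackr1. Sub-clusters 3 and 5 below were also highest for 2 each, Vwf and Ephb4 in 3 and Lcn2 and Tmsb10 in 5. Sub-cluster 3 (45 and 63) was led by Fbln5, Fbln2, Syt15, Stmn2 and Bmx and was highest for 9 of 10 arterial genes. Sub-cluster 4 (90 and 0) was led by Perp, Ces2e, Pvt1, Phlda3 and Dcxr, of which Perp and Phlda3 are known targets of the stress-response factor p53. Sub-cluster 5 (15 and 50) was led by Madcam1, Trp53i11, Piezo2, Smoc2 and Ppm1j and was highest for 8 of 8 tip cell genes. Of these, Cxcr4 stood at 36.3 CPM there and 35.5 in sub-cluster 3. With finer clustering (resolution 1) the group led by Madcam1 (16 and 50) was highest for 5 of 8. Sub-cluster 4 came from SMA alone and sub-cluster 2 mostly from Con, so each may be that library and not a cell state.

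Slco1a4 and Slc38a5 varied most, and the sub-cluster with the arterial genes held the highest level of one and the lowest of the other. Slco1a4 reached 499.95 CPM in sub-cluster 3 (451 to 553) and 297 in sub-cluster 1 (269 to 326), but 42.5 in sub-cluster 4 (29.0 to 59.9), 13.2 in sub-cluster 2 (7.72 to 21.2) and 8.70 in sub-cluster 5 (3.19 to 18.9), a 57.4-fold range. Slc38a5 had its lowest level in sub-cluster 3 at 113 (90.5 to 139.7) and stood at 1193 in sub-cluster 1 and 1224 in sub-cluster 2 (1165 to 1286), a 10.8-fold range. Sub-clusters 1 and 2 cannot be ranked from these sums, since sub-cluster 2 is mostly Con. Within each library Slc38a5 read higher in sub-cluster 1, with intervals that overlapped. In Con it was at 1407 (1322 to 1495) against 1259 (1196 to 1325), and in SMA at 973 (902 to 1049) against 859 (695 to 1049). Both libraries on their own had Slco1a4 higher and Slc38a5 lower in sub-cluster 3 than in sub-cluster 1. Slco1a4 was at 569 in SMA and 452 in Con in sub-cluster 3, and 6.76 and 9.23 in sub-cluster 5. Slc38a5 was at 138 in SMA and 95.7 in Con in sub-cluster 3. In sub-cluster 2, which had only 12 SMA cells, Slco1a4 was at 71.6 in SMA (8 UMIs) and 7.68 in Con (9 UMIs).

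The other members varied less. Sub-cluster 5, with the tip cell genes, read lowest for Ocln (52.2 CPM), Slc2a1 (493), Abcb1a (39.2) and Slco1c1 (438), in each library as in the sum. In SMA, with 15 cells in sub-cluster 5 and 12 in 2, the intervals of these 2 overlapped for Ocln, Slc2a1 and Abcb1a. For Ocln they were 37.1 to 133 and 42.9 to 164. In Con they overlapped for Abcb1a, so the order of sub-clusters 5 and 2 could not be set in these cases. Sub-cluster 3 was highest for Slc2a1 (1905), Abcg2 (330.2) and Cldn5 (5105), and sub-cluster 1 for Mfsd2a (1249), Slco1c1 (1746) and Slc22a8 (780.3), also in each library. In Con the intervals of sub-clusters 3 and 1 overlapped for Abcg2 and Cldn5. For Ocln and Abcb1a sub-clusters 1 and 3 did not differ beyond counting error, at 176 (155 to 199) and 167 (139 to 199) for Ocln and 141 (123 to 162) and 167 (139 to 199) for Abcb1a, and the libraries ordered them differently. Over these 5 sub-clusters the range was 1.84-fold for Abcg2, 1.85-fold for Cldn5, 1.97-fold for Mfsd2a and 2.60-fold for Slc22a8, and 3.36-fold to 4.27-fold for Ocln, Slc2a1, Slco1c1 and Abcb1a. The lowest levels of Cldn5 and Mfsd2a were those of sub-cluster 4, which held SMA cells only, so these pooled ranges also take in the difference between libraries. Finer clustering (resolution 1) gave, in place of sub-cluster 2, a group of 5 SMA and 102 Con cells led by Lrrc55, Ccl21a and Nr2f2 and a group of 7 and 25 cells that was highest for 8 of 8 cycling genes, whose sum was 444 CPM in the former and 4072 in the latter. Slco1a4 was low in both, at 8.37 (3.61 to 16.5) and 28.1 (12.9 to 53.4), and Slc38a5 high in both, at 1286 and 1032.

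**Figure D3:**
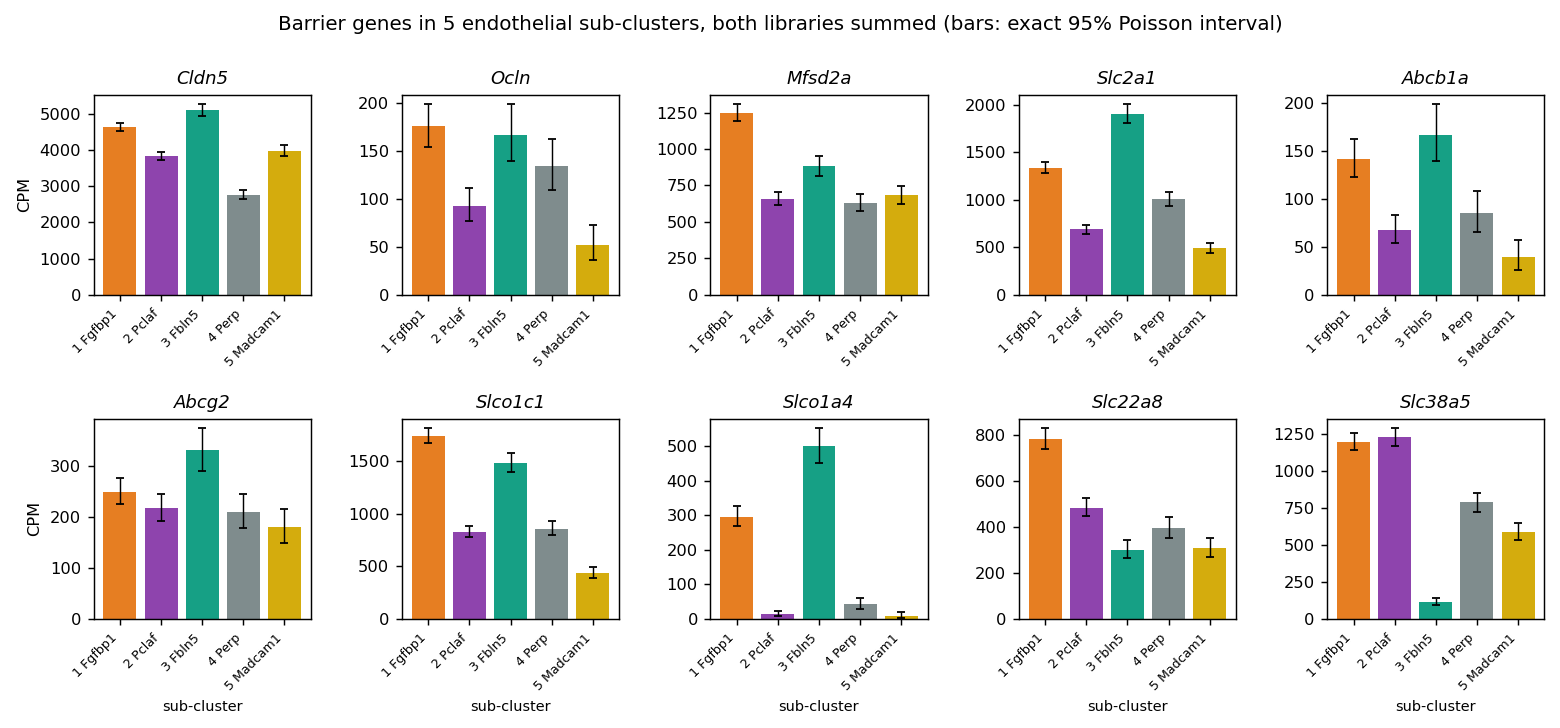
CPM of each member in the 5 endothelial sub-clusters with fewer than 3 markers of another class among their leading genes, libraries summed, with exact 95% Poisson intervals; each sub-cluster is named by number and first leading gene. Slco1a4 is highest in sub-clusters 3 and 1 and at 13.2 and 8.70 in 2 and 5, and Slc38a5 is lowest in 3.

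Between the libraries, differences of the members in endothelial-like cells were small. None of the 10 differed 2-fold or more between SMA and Con, against 5.17% of 10620 genes tested either way (292 higher and 257 lower), and against 1.78% of the 6127 genes with 100 or more UMIs, as all members had. The median log2 ratio of the members, SMA over Con, was 0.14 (range -0.39 to 0.75), beside 0.01 over all genes tested. Counting intervals lay above 0 for 5 members and below 0 for 3. Of all genes tested 11.8% lay above and 10.4% below, and of the 6127 genes 15.9% and 14.6%. Members with many UMIs have narrow intervals, which say nothing of the spread between mice.

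Slco1a4 showed the largest difference, 0.75 higher in SMA on the log2 scale (0.57 to 0.94), from 218 against 129 CPM. Slc2a1 was 0.31 higher (0.23 to 0.38), Ocln 0.26 (0.05 to 0.48), Abcb1a 0.25 (0.00 to 0.49) and Slco1c1 0.14 (0.06 to 0.21). Abcg2 was at 0.14 (-0.02 to 0.30) and Mfsd2a at -0.01 (-0.10 to 0.07), both with 0 inside the interval. Cldn5 was lower in SMA, at -0.39 (-0.43 to -0.35), as was Slc38a5 at -0.38 (-0.47 to -0.29), with Slc22a8 at -0.14 (-0.25 to -0.03). In cells of 5000 or more UMIs all 10 kept their sign, with none 2-fold apart (5.31% of all genes) and intervals above 0 for 3 members (11.8% of all genes) and below 0 for 3 (9.72%). Without any upper limit on genes per cell Slco1a4 was at 1.21 and passed 2-fold. With the shared SMA barcodes kept it was at 0.43 and Slc38a5 at -0.19, and the shared barcodes alone, as given above, lay nearer to Con for both genes. In that setting intervals lay above 0 for Slc2a1 and Slco1a4 alone and below 0 for Cldn5, Slc38a5, Slc22a8 and Mfsd2a, the last at -0.16 (-0.24 to -0.09), so the balance between higher and lower members turned.

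The make-up of the endothelium differed between the libraries, and the members were therefore also compared within sub-clusters 1 and 3, each with 20 or more cells on both sides. Cldn5 was lower in SMA in both, at -0.47 (-0.54 to -0.39) in sub-cluster 1, from 3876 against 5351 CPM, and at -0.39 (-0.49 to -0.30) in sub-cluster 3, from 4308 against 5656. Slco1a4 was higher in SMA in both, at 0.39 (0.11 to 0.67) and 0.33 (0.03 to 0.63), smaller values than its 0.75 over all endothelial-like cells. Slc2a1 had 0 within its interval in both, with 0.05 (-0.08 to 0.18) and -0.02 (-0.17 to 0.13). Abcb1a was at -0.19 (-0.61 to 0.22) and 0.60 (0.08 to 1.13). Ocln was at -0.23 (-0.60 to 0.14) and 0.28 (-0.25 to 0.81), and Abcg2 at -0.08 (-0.39 to 0.23) and 0.24 (-0.13 to 0.61). In sub-cluster 1 these 3 genes read opposite in sign to their values over all endothelial-like cells, with 0 within the interval. Slco1c1 was at -0.15 in both (-0.27 to -0.04 and -0.32 to 0.03), the opposite sign to its value over all endothelial-like cells. Slc38a5 was at -0.53 (-0.67 to -0.39) in sub-cluster 1 and 0.53 (-0.11 to 1.18) in sub-cluster 3, the latter from 43 UMIs in each library. At the finer resolution the sub-cluster led by Fbln5 had 0.73 (0.11 to 1.35) for Slc38a5, from 51 and 43 UMIs, opposite to the sign over all endothelial-like cells. Mfsd2a was at -0.29 (-0.42 to -0.15) in sub-cluster 1 and -0.02 (-0.24 to 0.21) in sub-cluster 3. Slc22a8 was at -0.40 (-0.58 to -0.23) in sub-cluster 1 and 0.23 (-0.16 to 0.61) in sub-cluster 3, and at the finer resolution the Fbln5 sub-cluster had 0.39 (0.01 to 0.76). When all sub-clusters of 20 or more cells in each library were summed (196 SMA and 247 Con cells), which adds to sub-clusters 1 and 3 the sub-clusters 6, with erythroid and mural genes, and 7, with OPC markers, the ratios were -0.35 for Cldn5, 0.46 for Slco1a4, 0.13 for Slc2a1, -0.16 for Slc38a5 and -0.01 for Slco1c1. In sub-cluster 6 alone (22 SMA and 42 Con cells) Cldn5 was at 0.08 (-0.13 to 0.29), Slc2a1 at 1.03 (0.58 to 1.48) and Slco1a4 at 1.48 (0.49 to 2.52), the last from 24 and 15 UMIs. The finer resolution split it, and the Slco1a4 direction turned in the erythroid group (14 SMA and 39 Con cells), with 32.1 CPM in SMA and 53.0 in Con from 2 and 11 UMIs, while the mural group held only 8 SMA and 3 Con cells.

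**Figure D4:**
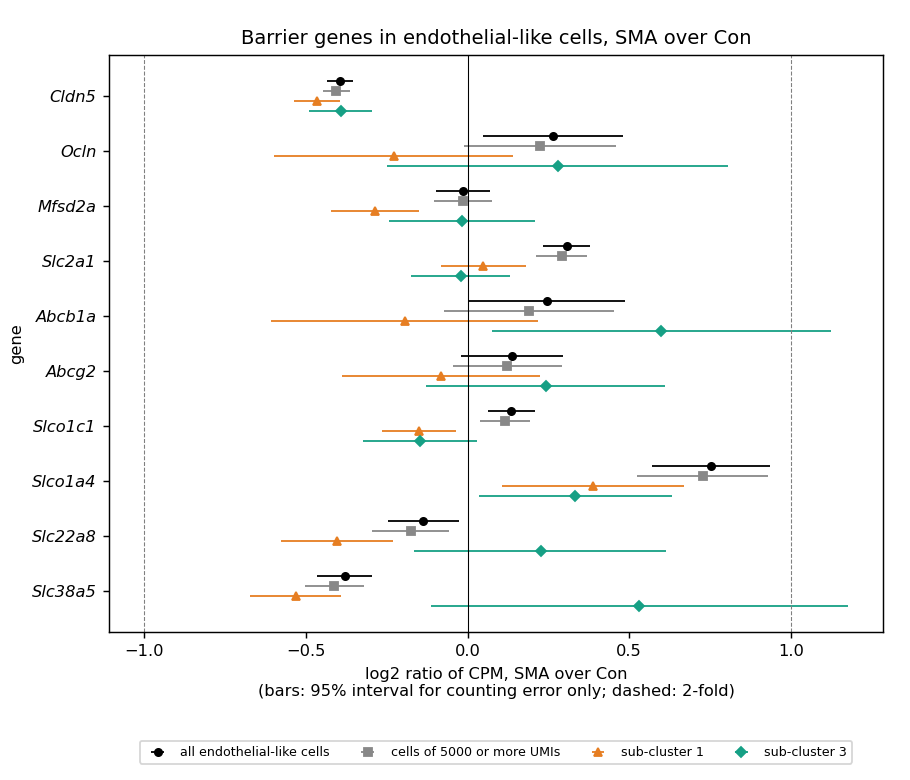
log2 ratio of CPM, SMA over Con, for each member in all endothelial-like cells (black), in those of 5000 or more UMIs (grey), and within sub-clusters 1 (orange) and 3 (green), with 95% intervals for counting error; dashed lines mark 2-fold. Cldn5 lies left of 0 and Slco1a4 right of 0 in all 4 sets, and Slc2a1 is near 0 within both sub-clusters.

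Outside the endothelium, members with 20 or more UMIs in a class were compared in the same way. Mfsd2a was higher in SMA astrocyte-like cells, 127 against 64.8 CPM, a log2 ratio of 0.97 (0.83 to 1.11). In OPC-like and COP-like cells, where it is also found, it was at 0.10 (0.03 to 0.17) and 0.20 (0.09 to 0.32). Slc2a1 in ependymal-like cells was at -0.19 (-0.36 to -0.02) and in astrocyte-like cells at -0.05 (-0.17 to 0.08), and Ocln in ependymal-like cells at 0.12 (-0.20 to 0.44). Abcg2 had 0 within its interval in all 9 other classes where it was compared. Mfsd2a intervals lay above 0 in 5 of 10 other classes and below 0 in 1. Cldn5 intervals lay below 0 in 6 of 8 other classes, erythroid-like cells among them at 26.9 against 66.6 CPM without globin, and no level in the rest of these classes passed 37.3 on that scale. In 3 of these 6 classes 5 Con cells held most of the Con UMIs, 37 of 42 in Schwann-like, 48 of 59 in mural-like and 60 of 72 in ependymal-like cells, so the counting intervals there are too narrow. Fibroblast-like values rest on different clusters in the libraries, since a cluster led by Mfap5 and Timp1 held 433 Con and 2 SMA cells and a cluster led by Slc6a13 and Mfap4 held 61 SMA and 168 Con cells.

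The wider barrier list of 70 genes gives the setting for the members. Of the genes with 20 or more UMIs, 41 of 68 in SMA and 40 of 66 in Con were 4-fold or more higher in endothelial-like than in other named cells, beside 4.92% and 4.73% of all genes. By role in SMA, these were 7 of 16 tight junction and cell contact genes, 14 of 20 transporters and receptors, 12 of 20 WNT signal and transcription factor genes and 8 of 12 vesicle and leakage genes. Sox17 and Sox18, SOX factors of endothelium, were at 9.12 and 9.21 on the log2 scale in SMA, and Foxq1, a forkhead factor, at 7.82. Lrp1, a lipoprotein receptor, and Vcam1, an adhesion molecule, were lower in endothelial-like cells, at -3.21 and -3.04 in SMA and -2.60 and -1.62 in Con. Abcb1b, the second P-glycoprotein gene of the mouse, was at -1.28 with 5 UMIs.

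Between SMA and Con, 61 of the 70 genes could be compared in endothelial-like cells, of which 37 were higher and 24 lower, with a median log2 ratio of 0.06. Intervals lay above 0 for 17 and below 0 for 10, beside 11.8% and 10.4% of all genes. Only 2 were 2-fold or more higher, beside 2.75% of all genes, and 1 was 2-fold or more lower, beside 2.42%. Among tight junction and cell contact genes 2 of 12 had an interval above 0 and 1 below, and Esam, an endothelial adhesion molecule, was at 0.01 (-0.07 to 0.08), Cdh5, VE-cadherin, at -0.16 (-0.32 to 0.00), and Lsr, an angulin of tricellular junctions, at -0.31 (-0.46 to -0.16). Transporters and receptors lay above 0 in 9 of 18 and below in 2. Slc16a1, the lactate carrier MCT1, was at 0.37 (0.28 to 0.46), Slc19a3, a thiamine carrier, at 0.84 (0.13 to 1.55) and Abcc4, an efflux pump, at 0.56 (0.14 to 0.98), while Slc3a2, the heavy chain of amino acid carriers, was at -0.23 (-0.30 to -0.16) and Slc6a6, the taurine carrier, at -0.15 (-0.26 to -0.04).

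WNT signal genes lay above 0 in 2 of 20 and below in 3. Apcdd1, a WNT target and inhibitor, was at 0.09 (-0.02 to 0.21), Ctnnb1, beta-catenin, at -0.28 (-0.41 to -0.15), Foxq1 at -0.11 (-0.26 to 0.04), Lrp5, a WNT co-receptor, at 1.22 (0.45 to 2.02) from 38 and 24 UMIs, and Nkd1, a WNT feedback inhibitor, at -0.90 (-1.22 to -0.59) from 47.0 against 87.7 CPM. Vesicle and leakage genes lay above 0 in 4 of 11 and below in 4. The rule by which genes were named took none of the 4 above 0. The highest of them was Cav2 at 0.81 (0.65 to 0.98), chosen for mention after its value was seen. Pltp, a phospholipid transfer protein, was at -0.70 (-0.76 to -0.63), from 1070.5 against 1736 CPM. Cav1, the main caveolin, was at 0.03 (-0.09 to 0.15), Icam2 at -0.24 (-0.36 to -0.11), Vcam1 at -1.60 (-2.32 to -0.94) from 23 and 103 UMIs, and Plvap, which marks leaky vessels, at -0.84 (-1.62 to -0.11) from 22 and 58 UMIs. The sign of Plvap turned in cells of 5000 or more UMIs, where it was at 0.54 (-0.42 to 1.49) from 20 and 21 UMIs. Vcam1 was the gene that passed 2-fold lower, and Lrp5 and Reck, a WNT co-receptor chosen for mention after its value was seen, were those that passed 2-fold higher. In cells of 5000 or more UMIs Reck was at 0.71 (-0.45 to 1.87).

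**Figure D5:**
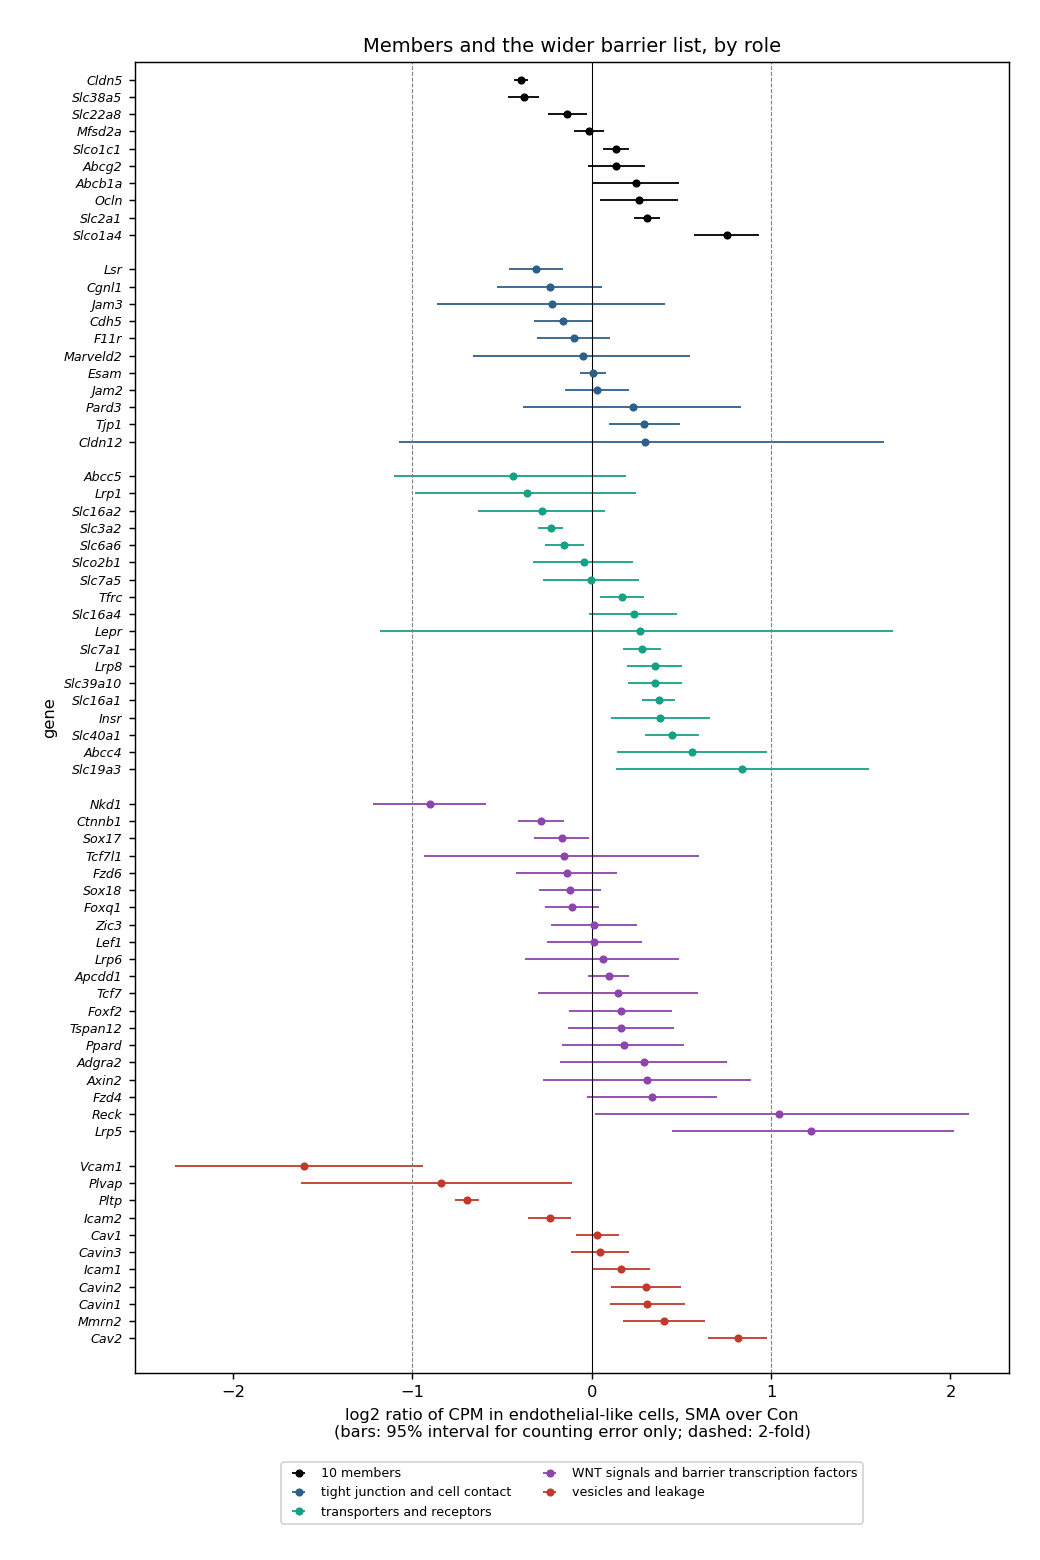
log2 ratio of CPM in endothelial-like cells, SMA over Con, for the 10 members (black) and barrier-list genes that could be compared, coloured by role, with 95% intervals for counting error; dashed lines mark 2-fold. Most genes lie between the dashed lines, and Vcam1, Lrp5 and Reck lie outside them.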

How the data were processed

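The authors deposited 10x Genomics 3′ UMI count matrices, 1 per library, made with Cell Ranger (version 4.0.0 per the file headers) on mm10; per the submitters' processing notes Seurat 3.2.2 was used downstream. The counts are whole UMIs per gene and barcode, neither normalized nor corrected for free RNA, and no cell annotation was used.

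Barcodes with 200 to 4000 genes and under 10% mitochondrial UMIs were kept, and SMA barcodes also listed in Con (6509 within these limits) were left out. Counts were log-normalised to 10000 per cell and clustered (2000 variable genes, 30 components, 20 neighbours, Louvain resolution 1.0) with the members, the barrier list, mitochondrial and ribosomal protein genes left out. Of 32 clusters, 1 high-ribosome cluster was dropped, 3 were left unnamed and the others fell into 14 classes named "-like" from marker lists, 11 with 50 or more cells in both libraries. Some naming rules were added after the clusters were seen. No doublet caller was run; an alternative dropped cells with 3 or more markers of another class, which kept 104 of 326 SMA and 107 of 441 Con endothelial-like cells. Another left globin UMIs out of the totals.

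UMIs were summed per class and library and divided by the class total (CPM). Intervals are exact, at 95%, Poisson for levels, conditional binomial for ratios and Clopper-Pearson for shares. Genes with 20 or more UMIs were compared, with 4-fold and 2-fold as thresholds and no p-value. The ratio scripts were tested on simulated data. Named list genes were the 3 with the highest level and the 2 with the largest ratio in each role, among those with 50 or more UMIs, and named partners were the closest by r of log2(CPM + 1). A gene of the barrier list that this rule names is not reported here by name, nor drawn, but is counted. Members and lists were chosen with earlier results of these data known. Gene positions are those of GENCODE M21 (GRCm38). Python 3.11.15, numpy 2.4.6, scipy 1.17.1, pandas 2.3.3, scikit-learn 1.9.0, igraph 0.11.9 and matplotlib 3.10.9 were used.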

Additional observations from a re-analysis of the deposited data

Results flagged for a closer look

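Slc22a8 in fibroblast-like cells had a log2 ratio of 5.70, SMA over Con (4.03 to 8.05), from 33 against 3 UMIs, while in OPC-like cells it had -2.23 (-4.00 to -0.77), from 5 against 20 UMIs. It is named here because the signs in these classes were opposite, and the difference between them was not tested. The SMA fibroblast-like UMIs lay in 10 of 63 cells, and 28 of the 33 in the 5 cells with the most. All 33 lay in the cluster led by Slc6a13 and Mfap4, at 57.4 CPM over 61 SMA cells, against 2 UMIs or 1.39 CPM over 168 Con cells of the same cluster, so the gap was about as large within it.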

How the results depend on the processing

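No paired analysis was possible because each group is 1 library. All 10 members stayed 4-fold or more higher in endothelial-like cells in both libraries under every alternative tried, the lowest log2 ratio being 2.20 for Mfsd2a. Between SMA and Con, 8 of 10 members kept their direction in 14 of 14 settings, and the exceptions were Mfsd2a (13 of 14, 0.16 with no upper limit on genes) and Slco1c1 (12 of 14, lowest -0.01). Without mixed barcodes, with 104 SMA and 107 Con endothelial-like cells, Ocln was at 0.51, Slc38a5 at -0.53 and Slc22a8 at -0.23. With globin UMIs left out Cldn5 was at -0.43 and Slco1a4 at 0.72, and endothelial over other Mfsd2a was at 2.27 in SMA and 2.57 in Con. With no upper limit on genes 1 member passed 2-fold, Slco1a4 at 1.21. Endothelial-like cells were 6.28% of SMA cells with shared barcodes kept and 3.65% at a mitochondrial limit of 20%. In Con they were 3.56% at that limit, 6.19% with no upper limit on genes, 4.30% with the high-ribosome cluster kept, 5.65% in cells of 5000 or more UMIs and 6.14% without erythroid-like cells and the fibroblast-like cluster of Con. Barrier-list genes 2-fold or more higher in SMA numbered 1 with shared barcodes kept, 1 in cells of 5000 or more UMIs, 1 without sub-clusters that held markers of another class, 0 at a mitochondrial limit of 20% and 0 at a minimum of 100 UMIs. Those 2-fold or more lower numbered 2 with shared barcodes kept, 2 with each cell weighted equally, 2 without mixed barcodes and 0 with no upper limit on genes. The cause of these shifts was not tested. The alternatives that left out sub-clusters or globin or changed the denominator of the share were chosen after seeing the data. Of the remaining values, 321 moved by less than their counting interval and 103 by more, with 0 changes of sign among called values. Depth limits Abcb1a and Ocln, with 257 and 319 UMIs in SMA endothelial-like cells, more than Cldn5, with 7857. With 1 library per group, differences between mice, between dissociations and between SMA and Con cannot be told apart.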
